A study of Mus musculus with 69 samples.

Results

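The genes of the 4 mouse Hox clusters were examined in newly synthesised RNA from the collecting duct and in total kidney RNA. Members were all rows of the count matrix whose symbol was Hox, a cluster letter from a to d and a number, which gave 39 genes of 24411 rows: 11 of the HoxA cluster, 10 of HoxB, 9 of HoxC and 9 of HoxD. Of these, 38 passed the filter on low counts (2 counts over all libraries) and were among the 21175 genes tested. Hoxc12 was left out of the tests, with 1 count in all 69 libraries.

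The libraries came from mice that carried 1 copy of a Cre-dependent uracil phosphoribosyltransferase gene (UPRT, from the parasite Toxoplasma gondii, placed in the Rosa26 locus) together with a Cre driver. All mice were given 4-thiouracil (4-TU, 430 mg/kg, intraperitoneally) and dissected 4 hours later, so that RNA made in this interval by Cre-expressing cells was labelled and could be isolated with biotin and streptavidin (pulldown). Hoxb7Cre;UPRTf/+ mice express Cre in the collecting duct, from a transgene driven by Hoxb7 sequence, and Atp6b1v1Cre;UPRTf/+ mice (the labels' spelling of an Atp6v1b1 driver) express it in intercalated cells and in cells with both intercalated and principal features. Control pulldowns numbered 10 for Hoxb7 (6 female, 4 male) and 11 for Atp6b1v1 (4 female, 7 male), and 21 libraries of total kidney RNA came from control mice of both genotypes (10 female, 11 male). Control mice were 5.5 months old, except 2 female Hoxb7 and 3 male Atp6b1v1 pulldowns and 5 total RNA libraries from mice of 3 months. Ischemic injury (iAKI) was 10 minutes of clamping of both renal pedicles, with 4-TU given 24 hours later, and provided 7 Hoxb7 pulldowns (3 female, 4 male) and 6 Atp6b1v1 pulldowns (3 female, 3 male). Volume depletion (vAKI) was 72 hours without water and food and provided 7 Hoxb7 pulldowns (4 female, 3 male) and 7 Atp6b1v1 pulldowns (3 female, 4 male), all from mice of 5.5 months.

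Hox genes encode homeodomain transcription factors that stand in the order in which they are expressed along the body, so that genes with low paralog numbers (the anterior genes) act towards the head and genes with high paralog numbers (the posterior genes) act towards the tail. Their proteins bind DNA together with TALE cofactors of the Pbx and Meis families, and the clusters are kept silent or active by Polycomb and trithorax complexes. In the embryonic kidney, Hoxa11 and Hoxd11 act in the metanephric mesenchyme, where they are needed for the signal that draws out the ureteric bud, and Hoxb7 marks the nephric duct, the ureteric bud and the collecting duct that forms from it.

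The libraries held 12618062 to 30305464 counts in genes (median 20868430). Library numbers in the labels fell into 3 series (A, B and C), and iAKI and vAKI Hoxb7 pulldowns belonged to series A only, whereas their controls came from more than 1 series. Principal cell markers (7 genes, summed CPM, which are counts scaled to 1000000 counts per library) were 2716 to 3469 in the male Hoxb7 control pulldowns of 5.5 months and 787 to 809 in those of Atp6b1v1. Compared with total RNA, 6 of 7 principal cell markers and 5 of 7 intercalated cell markers were higher in the Hoxb7 control pulldowns, and 6 of 7 intercalated and 2 of 7 principal cell markers were higher in those of Atp6b1v1. Stroma markers (7 genes) were present in every group, at 40.4 to 92.0 CPM in the male Hoxb7 controls and 149 to 382 CPM in total RNA. The strand setting of the counting was not given by name in the sources used here, so a Hox gene and an antisense RNA over the same bases may share or lose reads (Hoxb5os over Hoxb5 and Hoxb6, Hoxd3os1 over part of HoxD, Hoxaas2 and Hoxaas3 over Hoxa3 to Hoxa7). Neighbours whose RefSeq positions overlap, such as Hoxd3 and Hoxd4 or Hoxd10 and Hoxd11, were counted only where their reads were not ambiguous. In bulk RNA of this kind, a smaller share of a cell type and less RNA of a gene per cell cannot be told apart.

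Most Hox genes were measured in the adult kidney. Over the 69 libraries, 30 of 39 members had a mean above 1 CPM, with Hoxa11 just above (1.93 CPM) and Hoxd1 just below (0.407 CPM). The 9 low members (Hoxd1, Hoxc11, Hoxa13, Hoxb1, Hoxd12, Hoxd13, Hoxc13, Hoxb13 and Hoxc12) made up 0.0736% of all Hox counts, and 8 of these 9 are either the anterior-most genes of a cluster or genes with paralog numbers of 12 and 13. Hoxd8 alone provided 25% of the Hox counts, with a mean of 228.4 CPM. It was followed by Hoxb9 (85.8 CPM), Hoxd9 (77.3 CPM), Hoxa9 (53.5 CPM) and Hoxb3 (52.9 CPM). Hoxd8 and its neighbour Hoxd9 act in the trunk and lumbosacral region of the embryo, and Hoxb9 in the patterning of the ribs. The members of highest mean in each cluster were Hoxa9, Hoxa10 and Hoxa5 (HoxA), Hoxb9, Hoxb3 and Hoxb8 (HoxB), Hoxc6, Hoxc10 and Hoxc4 (HoxC), and Hoxd8, Hoxd9 and Hoxd4 (HoxD).

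Levels were compared between genes per length of transcript. The paper cautions that pulldowns may hold too much uracil-rich RNA and that kinetics vary between genes, which may limit comparisons between genes. Reads lost where Hox genes overlap also lower some levels. The order below was not corrected for these. In the Hoxb7 control pulldowns, Hoxd8 reached 85.6 ± 10.9 CPM per kb (SD, n = 10), above Hoxb9 at 40.4 ± 4.14, Hoxb6 at 36.4 ± 4.87 and Hoxd9 at 33.7 ± 5.45 CPM per kb. The spreads of the last 3 overlapped, and that of Hoxd8 did not overlap with any of them. In the Atp6b1v1 control pulldowns Hoxd8 was at 94.2 ± 18.0 and Hoxd9 at 43.2 ± 8.34 CPM per kb (SD, n = 11). The driver gene Hoxb7 itself was in the middle of the order, at 14.3 ± 1.79 CPM per kb in the Hoxb7 pulldowns, 12.2 ± 0.922 in the Atp6b1v1 pulldowns and 15.6 ± 1.60 in total RNA (SD, n = 10, 11 and 21).

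**Figure D1:**
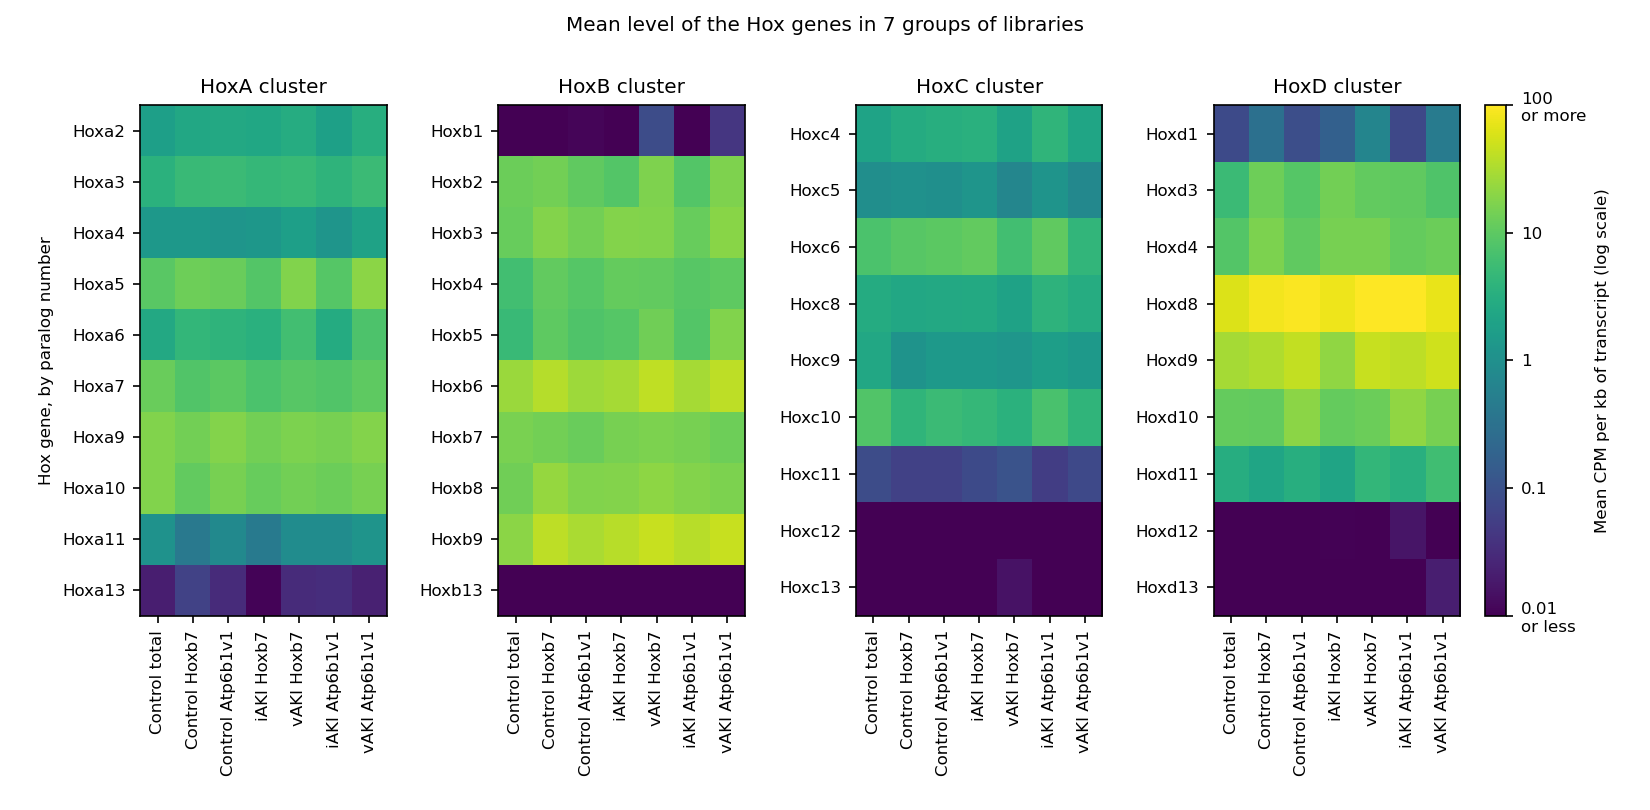
Heat map of the mean level of Hox genes (CPM per kb of transcript, logarithmic colour scale from 0.01 or less to 100 or more), by paralog number in the 4 clusters (panels) and in 7 groups of libraries. Hoxd8, at 85.6 CPM per kb in the Hoxb7 control pulldowns, stands above its cluster in every group, and the genes of paralog numbers 12 and 13 are near the lower end of the scale in all groups.

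The summed Hox counts were 607 ± 80.8 per 1000000 counts in total RNA (SD, n = 21, range 492 to 742). They were 1074 ± 85.6 in the Hoxb7 control pulldowns (SD, n = 10, range 935 to 1184) and 1052 ± 99.3 in the Atp6b1v1 control pulldowns (SD, n = 11, range 933 to 1311). No pulldown of either control group overlapped with total RNA. The clusters also took different shares of the sum. HoxB made up 37.9% of the Hox counts in the Hoxb7 control pulldowns, 29.6% in the Atp6b1v1 control pulldowns and 30.7% in total RNA, and HoxD made up 42.5%, 46.9% and 39.5%. HoxA made up 15.5% in Hoxb7, 18.9% in Atp6b1v1 and 23.6% in total RNA, and HoxC, the least abundant, 4.07%, 4.61% and 6.14%.

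The clusters lie in mouse GRCm38.p6 (the build of the mm10 genome) at chr6:52155367-52260880 (HoxA), chr11:96194316-96368254 (HoxB), chr15:102921131-103036856 (HoxC) and chr2:74668225-74765142 (HoxD). Promoters of the members that differed most between the control pulldowns (Hoxd10, Hoxd1 and Hoxa11) and of a HoxA gene that rose in vAKI with both drivers (Hoxa5) are printed from RefSeq, from 250 bases before to 50 bases after an annotated transcript start, 5′ to 3′ on the strand of the gene. RefSeq promoters were matched for 22 of the 39 members. Capitals mark a match, on either strand, to 1 of 4 motifs searched. These were a TATA box with the letters TATAAA, the box CCAAT, a Pbx and Hox pair spelled TGATNNAT, and the core of a tonicity element, TGGAAA. The promoters lie at chr2:74762730-74763029 (Hoxd1, plus strand), chr2:74691641-74691940 (Hoxd10, plus strand), chr6:52245761-52246060 (Hoxa11, minus strand) and chr6:52204538-52204837 (Hoxa5, minus strand).
Hoxd1: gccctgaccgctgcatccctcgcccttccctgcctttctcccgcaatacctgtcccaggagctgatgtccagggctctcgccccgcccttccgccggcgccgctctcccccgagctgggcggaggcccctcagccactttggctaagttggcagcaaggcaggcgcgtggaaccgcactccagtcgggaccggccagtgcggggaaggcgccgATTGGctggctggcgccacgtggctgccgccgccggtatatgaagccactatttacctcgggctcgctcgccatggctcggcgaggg
Hoxd10: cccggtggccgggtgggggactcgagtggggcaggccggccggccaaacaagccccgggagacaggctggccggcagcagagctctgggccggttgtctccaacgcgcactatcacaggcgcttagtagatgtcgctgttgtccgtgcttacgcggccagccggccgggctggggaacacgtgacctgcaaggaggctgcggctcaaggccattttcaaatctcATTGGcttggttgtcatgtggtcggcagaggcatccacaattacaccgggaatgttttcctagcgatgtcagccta
Hoxa11: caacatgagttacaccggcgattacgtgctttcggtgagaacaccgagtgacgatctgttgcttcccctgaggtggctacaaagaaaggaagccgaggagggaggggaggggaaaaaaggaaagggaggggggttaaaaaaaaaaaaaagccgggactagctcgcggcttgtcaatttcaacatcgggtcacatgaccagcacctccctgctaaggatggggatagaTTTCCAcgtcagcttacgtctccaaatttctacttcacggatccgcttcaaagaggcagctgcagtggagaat
Hoxa5: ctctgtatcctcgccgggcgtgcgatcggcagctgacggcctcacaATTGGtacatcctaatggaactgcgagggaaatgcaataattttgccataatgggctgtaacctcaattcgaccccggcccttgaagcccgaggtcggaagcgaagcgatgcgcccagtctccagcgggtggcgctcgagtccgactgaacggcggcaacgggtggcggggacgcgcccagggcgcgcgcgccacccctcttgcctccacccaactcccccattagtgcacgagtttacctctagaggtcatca
Hoxd1, Hoxd10 and Hoxa5 each held a CCAAT box on the minus strand of the gene (ATTGG), and Hoxa11 held a tonicity core on the minus strand (TTTCCA), with 1 match in each and so no overlap between motifs. A CCAAT match was found in 37.4% of all 32851 mouse promoters of this length and a tonicity core in 21.4%, and 15 and 6 of the 24 Hox promoters held them. TATA boxes were found in 13.6% of all promoters and in 4 Hox promoters, and the Pbx and Hox pair in 8.85% and 4. The 4 promoters held 29 (Hoxd1), 22 (Hoxd10), 15 (Hoxa11) and 29 (Hoxa5) CpG sites, where the median was 7 over all promoters and 14.5 over the Hox promoters.

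The first comparison set RNA newly made by the Hoxb7-labelled cells against total RNA of the whole kidney. More Hox genes were higher than lower in the Hoxb7 control pulldowns. Of 38 members tested, 25 passed edgeR's quasi-likelihood test (adjusted p below 0.05 after Benjamini-Hochberg correction), 18 higher and 7 lower, while 66.6% of all genes passed, 35.6% higher and 31.1% lower. The median log2 fold change was 0.46 over the members and 0.11 over all genes. All 6 HoxB genes that passed were higher, as were 5 of 9 in HoxA, 2 of 4 in HoxC and 5 of 6 in HoxD. Adding a fold change of at least 2 (a DEG), 6 members were called (32.5% of all genes were), namely Hoxd1, Hoxd3, Hoxb9 and Hoxa13 higher and Hoxc9 and Hoxa11 lower. The CPM of the groups did not overlap for 8 members (25.9% of all genes). Each control pulldown could be put beside 1 total RNA library of the same genotype, sex, age and series in the order of library numbers (21 pairs), and with these pairs as a block 25 members passed (64.8% of all genes) and the call of Hoxa13 was lost (adjusted p = 0.329).

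Hoxb9 ranged from 94.0 to 129.1 CPM in the Hoxb7 control pulldowns (median 99.2) and from 38 to 73.6 in total RNA (median 45). The groups did not overlap, with a log2 fold change of 1.03 ± 0.07 (SE, adjusted p = 2.01e-17). Hoxd3, a gene of cervical vertebrae, ranged from 28.3 to 63.9 CPM (median 37.8) against 10.7 to 23.1 (median 16.1), again without overlap (log2 fold change 1.31 ± 0.12, adjusted p = 2.86e-13). Its neighbour Hoxd4 was at 31.4 to 62.8 CPM (median 40.4) against 13.2 to 31.3 (median 21.7), and the groups did not overlap. Hoxb5 and Hoxb3 were also separated, at 16.1 to 22.3 against 6.81 to 12.1 CPM for Hoxb5 (medians 19.7 and 10.1) and 52.9 to 78 against 37.5 to 45.1 CPM for Hoxb3 (medians 64.3 and 42.1).

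Hoxd1, known from the circuits of pain-sensing neurons, was low in both groups but higher in the pulldowns. It was at 0.281 to 0.824 CPM (median 0.544) against 0 to 0.353 CPM (median 0.180), with overlap at the edge (log2 fold change 1.99 ± 0.34, adjusted p = 1.32e-06). The DEG call of Hoxa13, a gene of limb ends and the genital tubercle, rested on at most 3 counts in any Hoxb7 library (adjusted p = 0.0341), so its fold is not given. The 2 members that fell below total RNA by more than 2-fold were posterior. Hoxa11 was at 0.422 to 1.31 CPM (median 1.03) against 1.5 to 4.17 CPM (median 2.43), without overlap (log2 fold change -1.38 ± 0.19, adjusted p = 1.56e-08). Hoxc9, which specifies thoracic motor neurons, was at 2.06 to 3.88 CPM (median 2.56) against 4.27 to 7.89 CPM (median 6.04), also without overlap (log2 fold change -1.07 ± 0.11, adjusted p = 1.56e-12).

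The other members lower in the Hoxb7 pulldowns were Hoxc10 (log2 fold change -0.86), Hoxa10 (-0.58), Hoxa7 (-0.48), Hoxd11 (-0.45) and Hoxa9 (-0.23), so that 6 of the 7 had paralog numbers of 9 to 11. Their ranges overlapped those of total RNA, as for Hoxa10, a gene of the lumbar vertebrae and the uterus (27.5 to 40.6 CPM, median 34.6, against 39.3 to 66.2 CPM, median 53.2). Stroma markers were lower in the pulldowns too, 7 of 7, as were 4 of 4 smooth muscle and 5 of 6 proximal tubule markers, and their part in these differences was not tested. The call of Hoxa5 was lost with males only. Hoxa5 was at 10.1, 12.8, 18.9 and 22.6 CPM in the 4 male Hoxb7 controls and at 18.7, 31, 39.8 and 42.7 CPM in the 4 females of 5.5 months, and its log2 fold change of 0.39 became -0.04 in males only (adjusted p = 0.915). These levels went with series as well as with sex. The males of series A were at 10.1 and 12.8 CPM and those of series B at 18.9 and 22.6 CPM, and the only female of series A was at 18.7 CPM.

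The Atp6b1v1 control pulldowns differed from total RNA in 21 members (63.8% of all genes), 16 higher (34.4%) and 5 lower (29.4%), and none reached a 2-fold change, although 27.7% of all genes did (0 members also with DESeq2). Hoxd10, known from lumbar motor neurons, had the largest difference among the members that passed. It was at 30.7 to 46.3 CPM in the pulldowns (median 36.4) and 15.7 to 28.7 CPM in total RNA (median 19.0), without overlap (log2 fold change 0.92 ± 0.07, adjusted p = 5.93e-16). Hoxb5 was the other member without overlap (24.1% of all genes had none), at 12.2 to 18.9 against 6.81 to 12.1 CPM (log2 fold change 0.68 ± 0.07, adjusted p = 1.46e-11). Hoxd3 (0.74), Hoxb9 (0.71), Hoxd8 (0.66) and Hoxd9 (0.65) were higher as well. The 5 members that were lower were Hoxc9 (-0.75), Hoxc10 (-0.60), Hoxa11 (-0.38), Hoxb7 (-0.32) and Hoxa7 (-0.29), and the call of Hoxa11 (adjusted p = 0.0481) was lost in 21 of 42 fits that left out 1 library. With the block of pairs in library order 24 members passed (63.4% of all genes). Both comparisons used the same 21 libraries of total RNA.

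The direct comparison of the drivers asked how the intercalated and double-positive cells differed from the collecting duct as a whole. The Hox genes split by cluster and by position. Of 38 members, 17 passed (9.93% of all genes), 6 higher in Atp6b1v1 (5.73% of all genes were) and 11 lower (4.2%). All 8 HoxB genes from Hoxb2 to Hoxb9 were lower in Atp6b1v1, with log2 fold changes of -0.45 to -0.25. In HoxD, the anterior genes Hoxd1, Hoxd3 and Hoxd4 were lower and the posterior genes Hoxd9, Hoxd10 and Hoxd11 were higher, whereas Hoxd8 between them did not pass. In HoxA only Hoxa9, Hoxa10 and Hoxa11 passed, and all were higher in Atp6b1v1. No HoxC gene passed. The median log2 fold change was -0.01 over the members and over all genes.

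Hoxd10 was the member without overlap (1.13% of all genes had none). The Atp6b1v1 pulldowns were at 30.7 to 46.3 CPM and the Hoxb7 pulldowns at 16.4 to 25 CPM (medians 36.4 and 20.4), with a log2 fold change of 0.98 ± 0.09 (adjusted p = 1.98e-11). Hoxa11 was at 0.754 to 2.63 CPM against 0.422 to 1.31 CPM (medians 1.79 and 1.03), a log2 fold change of 1.00 ± 0.21 (adjusted p = 0.000665), and Hoxd11 at 2.32 to 4.65 against 1.07 to 3.48 CPM (medians 3.82 and 2.52), a log2 fold change of 0.62. These are the kidney-patterning genes of paralog number 11, and the groups overlapped for both. Hoxd9 (0.40), Hoxa10 (0.43) and Hoxa9 (0.29) had smaller differences.

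Hoxd1 was the only DEG (4.11% of all genes were DEGs). It was at 0 to 0.436 CPM in the Atp6b1v1 pulldowns and 0.281 to 0.824 CPM in the Hoxb7 pulldowns (medians 0.152 and 0.544), a log2 fold change of -1.71 ± 0.39 (adjusted p = 0.00144), and the ranges overlapped. Hoxd4 was at 19.4 to 41.8 against 31.4 to 62.8 CPM (medians 26.5 and 40.4), a log2 fold change of -0.60 ± 0.12 (adjusted p = 0.000456), and Hoxd3 at 15.9 to 40.8 against 28.3 to 63.9 CPM (medians 24 and 37.8), a log2 fold change of -0.57. Stroma (4 of 7), smooth muscle (4 of 4), macrophage (4 of 5) and intercalated cell markers (6 of 7) were higher in Atp6b1v1, and principal cell (5 of 7) and urothelium markers (5 of 5) were lower. Their part in the Hox differences was not tested. With females only 4 members passed (3.53% of all genes), and with males only 15 (10.5%).

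**Figure D2:**
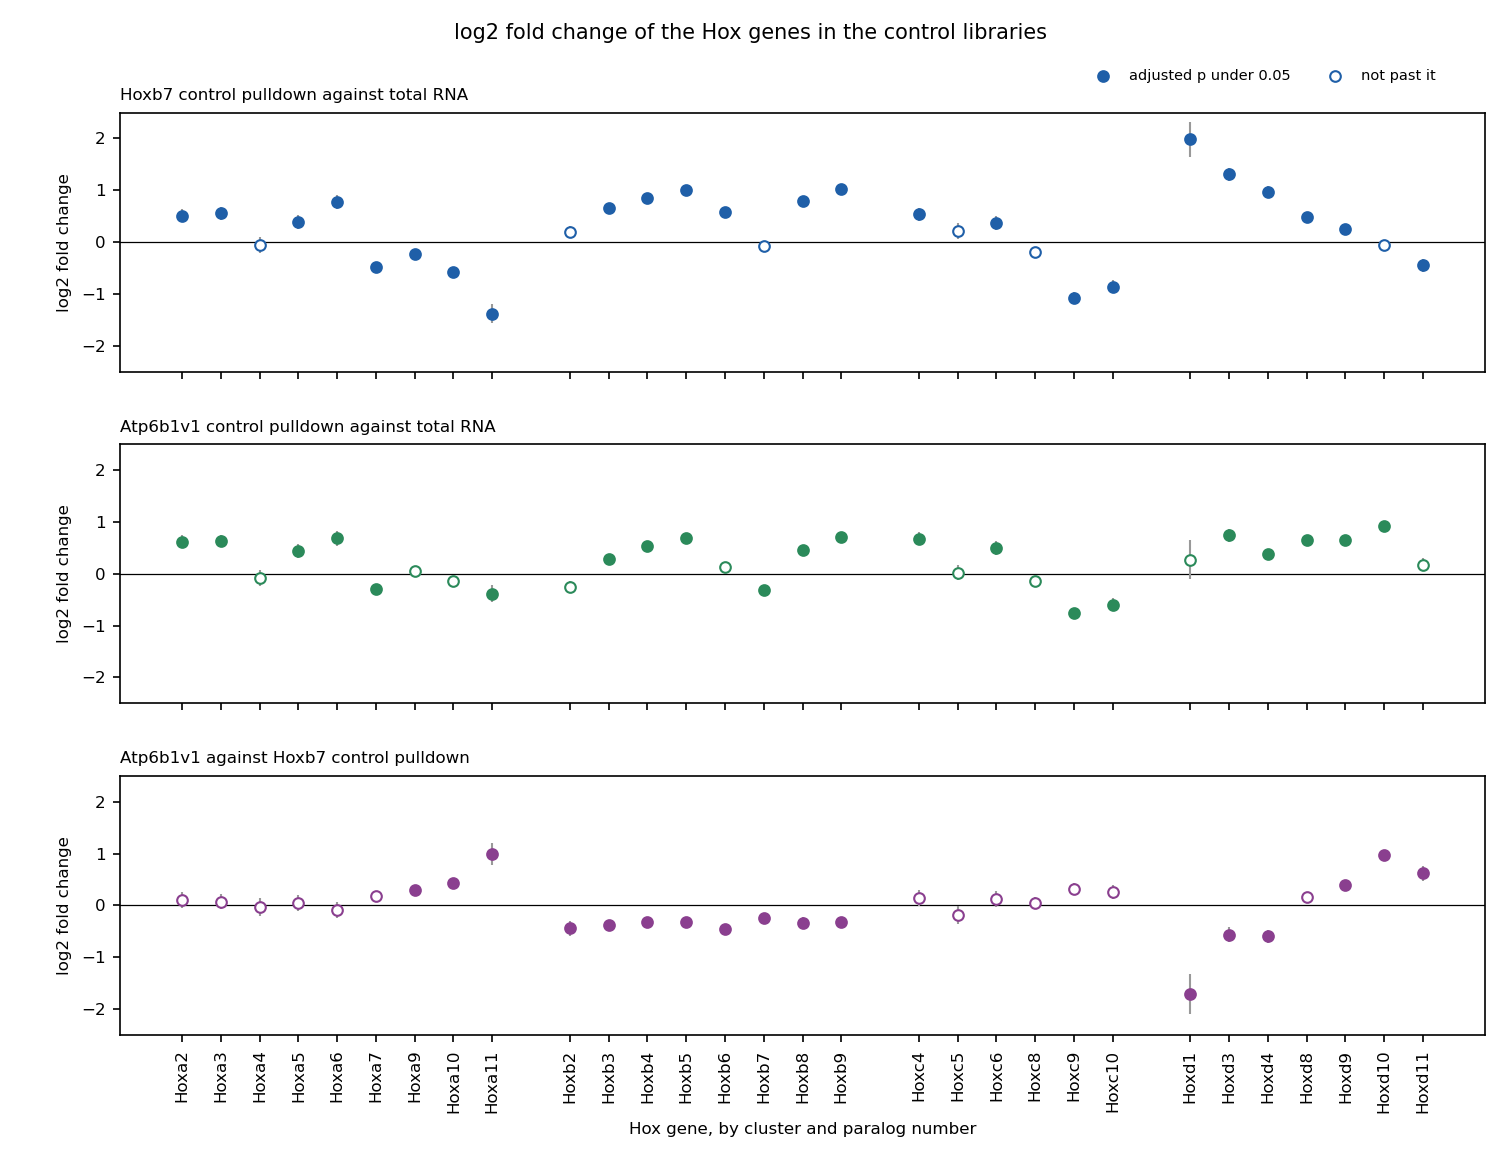
Log2 fold changes (points) with SE (bars) of 30 Hox genes in 3 comparisons of control libraries: Hoxb7 pulldown against total RNA, Atp6b1v1 pulldown against total RNA, and Atp6b1v1 against Hoxb7 pulldown. Filled points passed edgeR's test (adjusted p below 0.05) and open points did not. In the comparison of the pulldowns the HoxB genes lie below 0, and HoxD runs from -1.71 (Hoxd1) to 0.98 (Hoxd10).

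**Figure D3:**
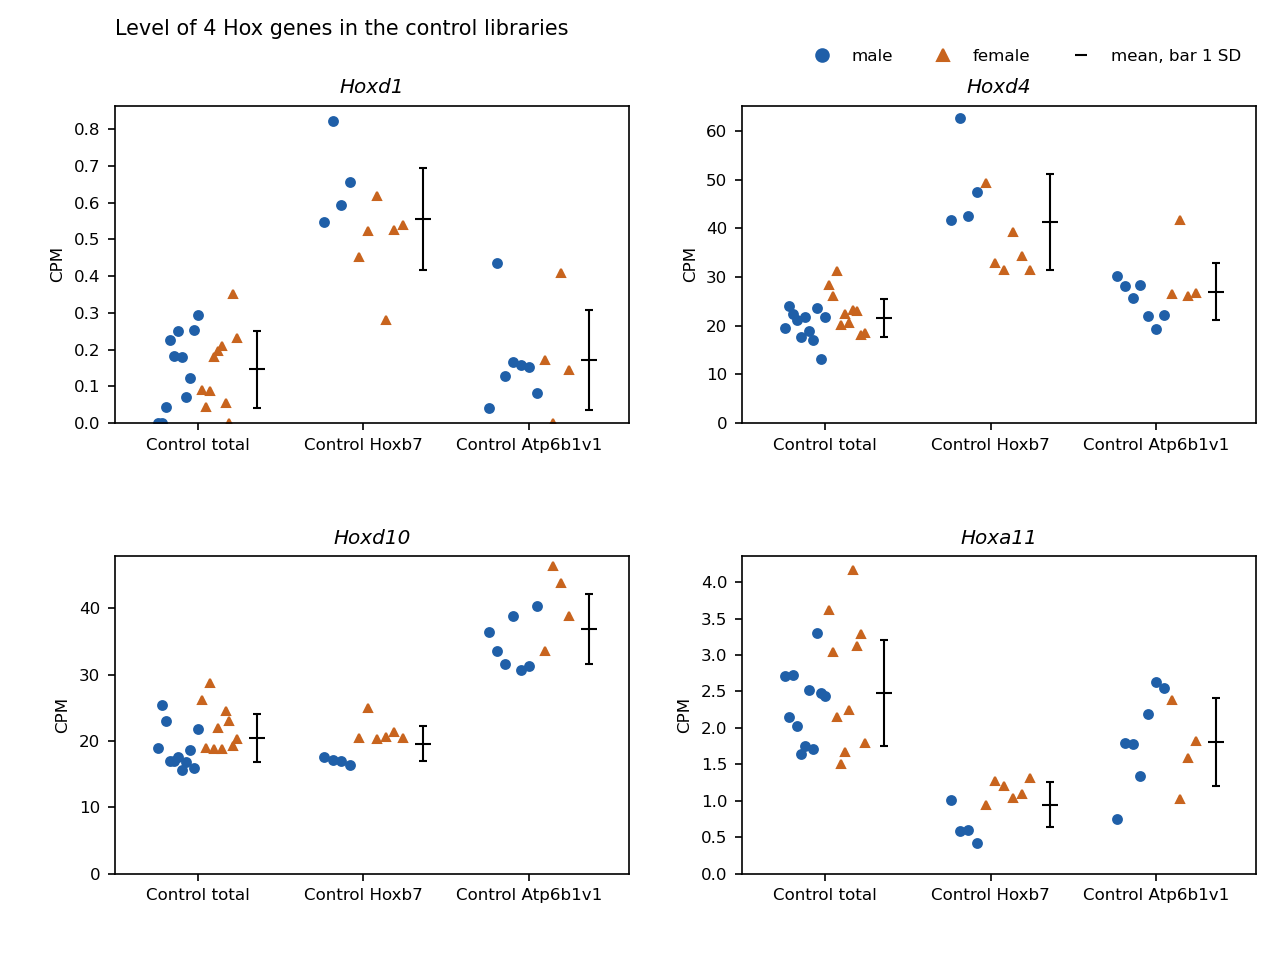
CPM of Hoxd1, Hoxd4, Hoxd10 and Hoxa11 in each control library, by group (total RNA, Hoxb7 pulldown, Atp6b1v1 pulldown), with the mean and 1 SD; circles are male and triangles female. Hoxd10 in the Atp6b1v1 pulldowns (30.7 to 46.3 CPM) lies above both other groups, and Hoxd1 is highest in the Hoxb7 pulldowns (0.281 to 0.824 CPM).

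No difference by Cre genotype was detected. In total RNA of Hoxb7Cre against Atp6b1v1Cre mice, 0 members passed edgeR's test (35 of 21175 genes did, 0.165%), and 1 member, Hoxc8, was below an unadjusted p of 0.05. DESeq2 also called 0 members. Hoxb7, whose sequence drives the Cre transgene, had a log2 fold change of 0.00 ± 0.07.

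Genes that act with the Hox genes were compared in the same way, where 66.6% of all genes passed for Hoxb7 against total RNA and 9.93% between the pulldowns. Of 11 TALE cofactors, 5 were higher and 3 lower in the Hoxb7 pulldowns than in total RNA, among them Tgif2 (log2 fold change 0.94) and Meis3 (-0.93). Between the pulldowns, Meis1 (0.80) and Meis2 (0.52) were higher in Atp6b1v1 and Pbx3 lower (-0.24). Of 36 Polycomb and trithorax genes, 25 were higher and 5 lower in Hoxb7 than in total RNA, led by the histone demethylase Kdm6a (1.43) and the trithorax methyltransferase Kmt2a (1.34), and 0 passed between the pulldowns with edgeR, where 2 were below an unadjusted p of 0.05. Of 18 genes of retinoic acid and Cdx regulation, 3 were lower in Atp6b1v1 than in Hoxb7, namely Aldh1a3 (-1.71), which makes retinoic acid, Crabp2 (-1.07), which binds it, and the receptor Rarg (-0.64), and 0 were higher. Of 20 ureteric bud and mesenchyme genes, 5 were lower in Atp6b1v1, including Wnt9b (-1.79), Wnt7b (-1.18), Gata3 (-0.90) and Pax2 (-0.82), and 0 were higher.

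Noncoding RNAs inside the clusters partly followed their neighbours. Of 18 measured, 8 were higher and 6 lower in the Hoxb7 pulldowns than in total RNA. Haglr (log2 fold change 1.88) and Mir10b (2.26) of HoxD were higher, and Hoxa11os (-1.76) was lower, as was Hoxa11. Between the pulldowns, Hoxd3os1 (-1.19), Mir10b (-1.62) and Haglr (-0.53) were lower in Atp6b1v1, like Hoxd1, Hoxd3 and Hoxd4, and Hoxa11os (0.77) was higher, like Hoxa11. Since the strand setting was not given by name beyond the use of defaults, overlapping pairs are not taken as independent measurements. The libraries were made from poly(A) RNA, so counts at Mir10b do not measure the mature microRNA. Of 26 genes that flank the clusters, only Chn1 beyond HoxD passed between the pulldowns (0.40).

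Injury was tested in the 22 male pulldowns of 5.5 months. The vAKI libraries fell into 2 ranges for several genes, and this is given per library, with no test. Hoxc6 was at 3.88 to 6.50 CPM in 9 of the 14 vAKI libraries and at 10.9 to 21.3 CPM in the other 5, which were the female Hoxb7 replicates 1, 2 and 3 and the male Atp6b1v1 replicates 1 and 2. The summed TALE cofactors were at 451 to 580 CPM in those 9 and at 307 to 355 CPM in those 5. The 3 male Hoxb7 vAKI libraries all belonged to the 9. In the 4 male Atp6b1v1 vAKI libraries, the upper range held replicates 1 and 2 of series A and the lower range replicates 6 and 7 of series B. The ranges did not follow the series elsewhere, since the female Atp6b1v1 replicates 3 and 4 of series A were in the lower range (4.70 and 4.07 CPM) and the Hoxb7 vAKI libraries, all of series A, were in both.

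After ischemia, Hox genes passed at a share near that of all genes in the Hoxb7 pulldowns (7.89% against 6.13%). In the Hoxb7 pulldowns (4 iAKI, 4 control), 3 of 38 members passed (6.13% of all genes), all lower, and 0 were DEGs (2.3% of all genes, and 0 members with DESeq2). Hoxd4 was at 32.3, 29, 29.9 and 31.3 CPM after iAKI and at 41.7, 62.8, 42.5 and 47.4 CPM in controls, a log2 fold change of -0.65 ± 0.12 (adjusted p = 0.00256). Hoxb8 was at 43, 43.4, 33.2 and 38.6 against 53.4, 66, 71.3 and 66.1 CPM, a log2 fold change of -0.69 ± 0.18 (adjusted p = 0.0259). Hoxd9 was at 38.4, 43.7, 40.7 and 44.8 against 54.4, 66.8, 87.8 and 61.3 CPM, a log2 fold change of -0.68 ± 0.20 (adjusted p = 0.0462). None of the 3 overlapped between groups, and 9 members in all did not (15.9% of all genes). Another 13 members had an unadjusted p below 0.05 and did not pass.

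The 3 members that fell after iAKI did so beside a fall of principal cell markers, 6 of 7 of which were lower (1016 to 1267 CPM summed, against 2716 to 3469 in controls), and a rise of 5 of 7 stroma markers (124 to 322 against 40.4 to 92.0 CPM). All 6 fat markers were lower after iAKI, and the summed adrenal markers were at 98.8 CPM in control replicate 2 and 18.3 to 27.7 CPM in the other male pulldowns. The part of these cells was not tested. The count of 3 was 1 without control replicate 3. The iAKI libraries were all of series A and the controls 2 of series A and 2 of series B. More members passed with a library series term or within series A alone, as listed at the end. With females only, 0 members passed with edgeR (3.14% of all genes) and the log2 fold changes of Hoxd4 (0.41) and Hoxb8 (0.27) were above 0.

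In the Atp6b1v1 pulldowns (3 iAKI, 4 control) 0 members passed edgeR's test (8.51% of all genes) and so 0 were DEGs (2.82%), 4 were below an unadjusted p of 0.05 (Hoxc10, Hoxc4, Hoxd8 and Hoxa2) and DESeq2 called 1. Hoxd4 had a log2 fold change of 0.01 ± 0.13, and Hoxd8 of 0.34 ± 0.15 (adjusted p = 0.157). The groups did not overlap for 9 members (20.6% of all genes). Tested directly, the iAKI response differed between the drivers for 5 members (7.79% of all genes). Hoxc10 (0.97), Hoxb6 (0.84), Hoxd8 (0.73) and Hoxd4 (0.66) changed more upwards in Atp6b1v1 than in Hoxb7, and Hoxa2, which sets the identity of the second branchial arch, more downwards (-1.14, the only DEG, with 3.49% of all genes). These counts fell to 0 without Hoxb7 control replicate 3.

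After volume depletion, Hox genes passed at a share somewhat above that of all genes in the male Hoxb7 pulldowns (47.4% against 35.5%). The share of DEGs was 21.1% against 16.4%. The vAKI libraries were all of series A, and the controls 2 of series A and 2 of series B. With 3 vAKI and 4 control libraries, 18 of 38 members passed (35.5% of all genes), 11 higher (17.9%) and 7 lower (17.6%), and 8 were DEGs (16.4%). The clusters moved in different directions. All 7 HoxA genes that passed rose, including Hoxa5, Hoxa6, Hoxa10 and Hoxa11, and all 4 HoxC genes that passed (Hoxc4, Hoxc5, Hoxc6 and Hoxc10) fell. In HoxD, Hoxd1, Hoxd9 and Hoxd11 rose and Hoxd3 and Hoxd4 fell, and in HoxB, Hoxb1 rose and Hoxb4 fell. The groups did not overlap for 20 members (39.5% of all genes). The median log2 fold change was 0.26 over the members and 0.00 over all genes. With females only 0 members passed edgeR's test (0.109% of all genes), and with both sexes and a sex term 5 did (12.8%). In females the log2 fold changes had the opposite sign for members including Hoxa5 (-0.015), Hoxa6 (-0.008), Hoxa9 (-0.011), Hoxc10 (0.38), Hoxb4 (0.36), Hoxd3 (0.042) and Hoxd4 (0.20).

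Among anterior and central HoxA genes, Hoxa5, which is needed for the trachea and lung, was at 33.2, 32.6 and 36.4 CPM after vAKI and at 12.8, 10.1, 22.6 and 18.9 CPM in controls. The groups did not overlap, with a log2 fold change of 1.09 ± 0.24 (adjusted p = 0.00111). Hoxa6 and Hoxa4 rose by 0.96 and 0.87 on the log2 scale, the latter not in every fit that left out 1 library (it no longer passed without control replicate 2 or 3 or vAKI replicate 4).

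The posterior genes of kidney patterning rose as well. Hoxa11 was at 2.11, 2.06 and 3.17 CPM against 1.01, 0.581, 0.593 and 0.422 CPM, without overlap (log2 fold change 1.90 ± 0.43, adjusted p = 0.00139). Hoxd11 was at 7.20, 4.70 and 3.91 CPM against 2.23, 1.07, 2.27 and 1.78 CPM, without overlap (log2 fold change 1.52 ± 0.33, adjusted p = 0.000909). Hoxd9 (0.73), Hoxa10 (0.60) and Hoxa9 (0.51) rose by less than 2-fold.

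The anterior-most low genes also rose. Hoxd1 was at 1.56, 1.34 and 2.96 CPM (31, 37 and 72 counts) against 0.548, 0.824, 0.593 and 0.656 CPM (13, 17, 12 and 14 counts), a log2 fold change of 1.58 ± 0.49 (adjusted p = 0.0141), which no longer passed without vAKI replicate 7. Hoxb1, which specifies a segment of the hindbrain, had 2, 11 and 5 counts after vAKI and 0, 0, 1 and 0 counts in controls (adjusted p = 0.00529), so no fold is given.

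The members that fell were led by HoxC. Hoxc6, a gene of the thoracic region, was at 4.93, 5.32 and 6.50 CPM against 16.2, 15.0, 14.3 and 15.0 CPM. The log2 fold change was -1.43 ± 0.26 (adjusted p = 0.000147), and the lowest control was more than 2-fold above the highest vAKI library. Its neighbour Hoxc5 was at 1.51, 1.74 and 1.40 against 3.29, 2.62, 3.31 and 4.31 CPM (log2 fold change -1.12 ± 0.27, adjusted p = 0.00211). Hoxc4 (-0.94), Hoxc10 (-0.71), Hoxd3 (-0.65), Hoxd4 (-0.56) and Hoxb4 (-0.55) fell by less. Principal cell markers fell in the same libraries, 7 of 7 (1121 to 1222 CPM summed, against 2716 to 3469), and 2 of 7 stroma markers rose (100.5 to 142.8 against 40.4 to 92.0 CPM summed). Thick ascending limb markers fell for 2 of 3 genes (772 to 858 against 1335 to 2328 CPM summed), fat markers for 5 of 6 (94.2 to 122.9 against 110.7 to 242.9 CPM), urothelium markers for 3 of 5 (14.3 to 18.8 against 27.2 to 30.5 CPM), intercalated cell markers for 3 of 7 (530 to 1039 against 801 to 1160 CPM) and adrenal markers for 3 of 4 (22.4 to 27.5 against 22.4 to 98.8 CPM). Smooth muscle markers rose for 2 of 4 genes and endothelium markers for 1 of 4, and of 5 macrophage markers 2 rose and 2 fell. Of 6 proximal tubule, 3 podocyte and 4 skeletal muscle markers 0 passed edgeR's test, and 0 of each had an unadjusted p below 0.05. The part of these cells was not tested.

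**Figure D4:**
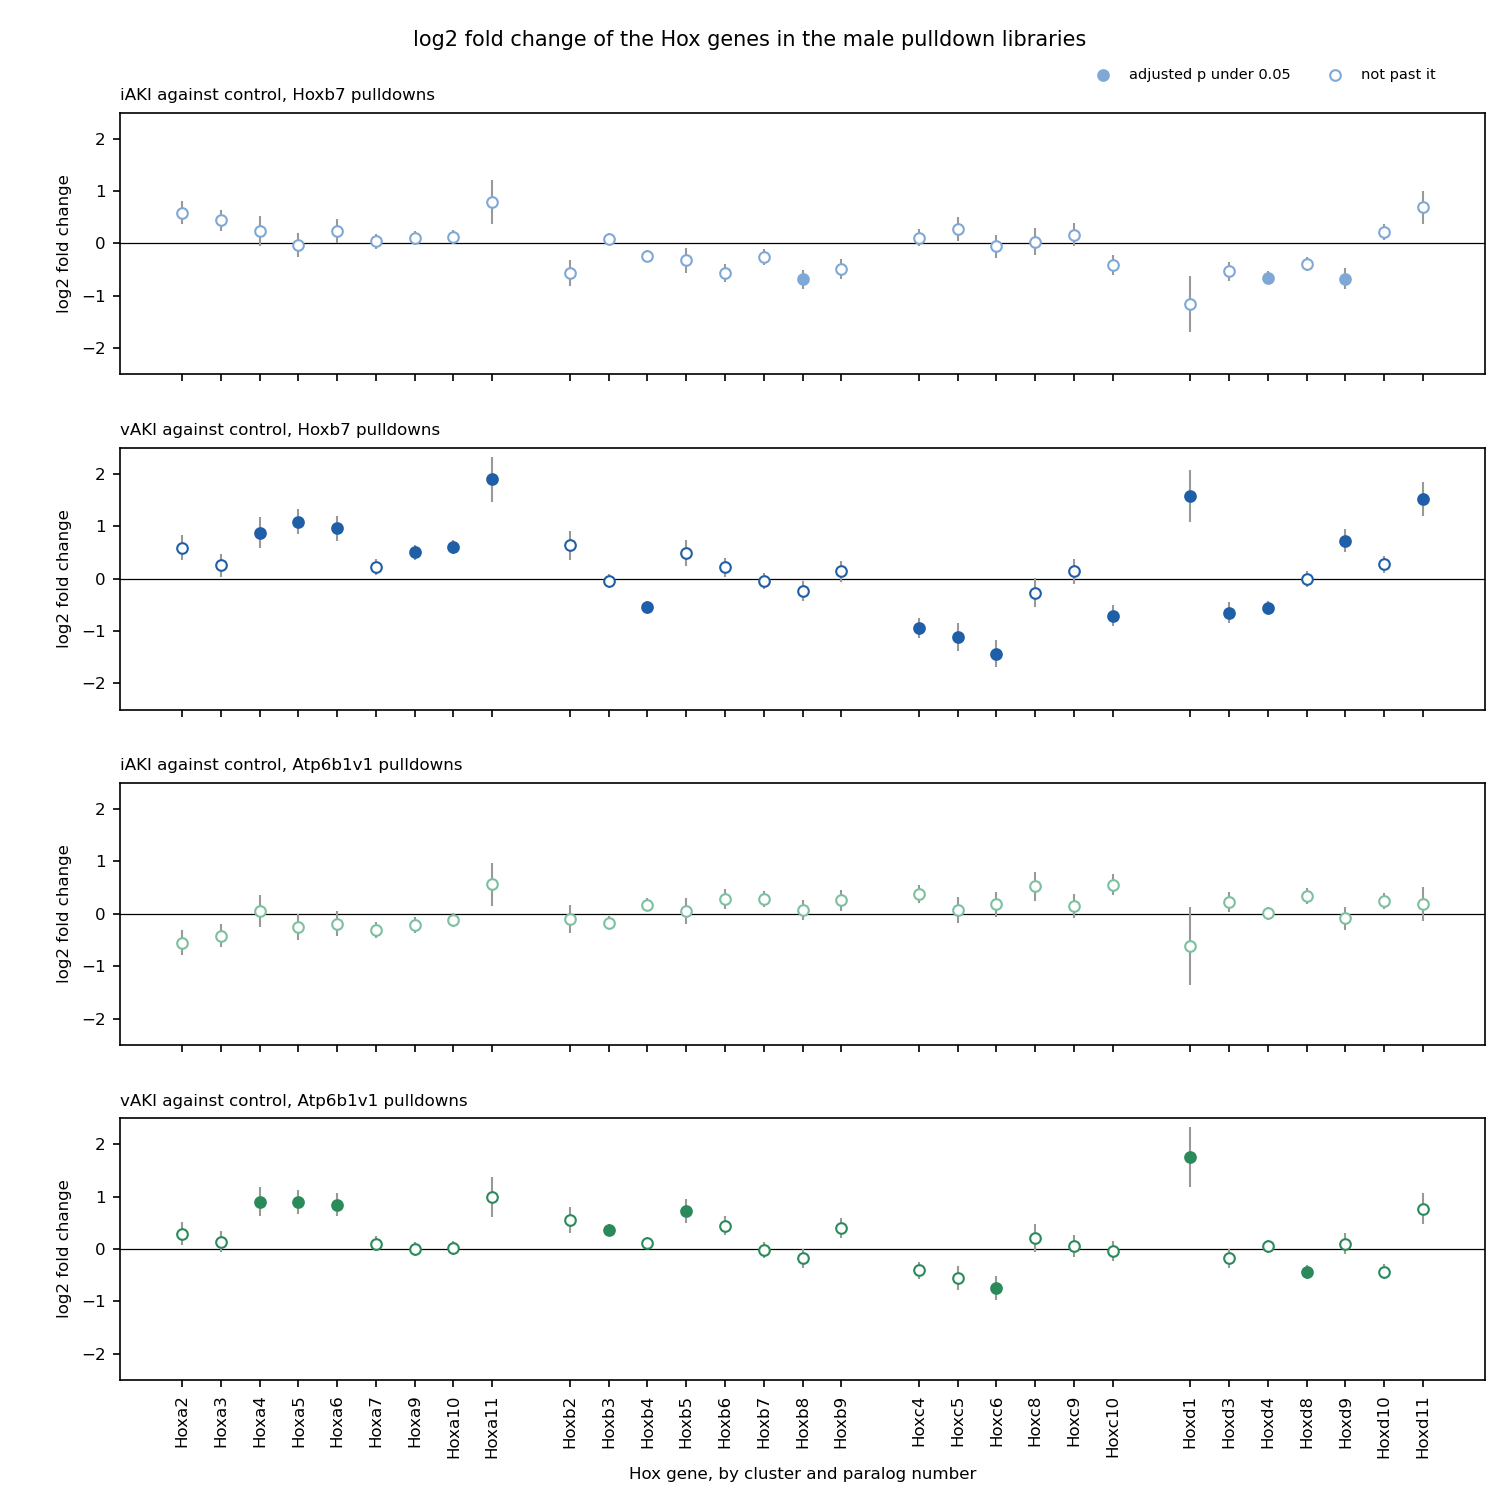
Log2 fold changes (points) with SE (bars) of 30 Hox genes after iAKI and vAKI against control, in male Hoxb7 and Atp6b1v1 pulldowns (4 comparisons); filled points passed edgeR's test (adjusted p below 0.05) and open points did not. Most filled points are in the vAKI comparison of Hoxb7 pulldowns, with HoxA above 0 (Hoxa11 at 1.90) and HoxC below 0 (Hoxc6 at -1.43), and none is in the iAKI comparison of Atp6b1v1 pulldowns.

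In the Atp6b1v1 pulldowns vAKI changed 9 members (14.6% of all genes), 7 higher (8.11%) and 2 lower (6.47%), with 4 vAKI and 4 control libraries. HoxA genes including Hoxa4, Hoxa5 and Hoxa6 rose here too, as did Hoxb3, Hoxb5 and Hoxd1, and Hoxc6 and Hoxd8 fell. Hoxa5 was at 31.6, 25.9, 46.0 and 48.9 CPM against 16.7, 20.3, 18.4 and 26.6 CPM, with 1 vAKI library inside the control range (log2 fold change 0.90, adjusted p = 0.00944). Hoxa6 was at 6.09, 6.66, 6.27 and 6.31 CPM against 2.68, 2.66, 3.60 and 5.19 CPM, without overlap (0.85 ± 0.22, adjusted p = 0.0127). Hoxa4 (0.91 ± 0.28) was also separated between the groups, and 7 members in all were (14.5% of all genes).

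Other members were split by library. Hoxc6 was at 12.6, 11.3, 5.75 and 5.44 CPM against 18.9, 17.8, 12.2 and 11.5 CPM (log2 fold change -0.75 ± 0.23, adjusted p = 0.0289), and in each series the vAKI libraries were below their own controls. Hoxb5, involved in the innervation of the gut, was at 14.1 and 16.9 CPM in series A and 33.5 and 34.6 CPM in series B, against 14.7 and 12.2 in series A and 16.8 and 16.4 CPM in series B controls (0.73 ± 0.24, adjusted p = 0.0391). Hoxd1, the only DEG (5.15% of all genes), was at 0.176, 0.398, 1.15 and 0.984 CPM (5, 12, 18 and 17 counts) against 0.0419, 0.436, 0.127 and 0.167 CPM (1, 9, 3 and 5 counts), with overlap (1.75 ± 0.57, adjusted p = 0.0406). Hoxd8, the most abundant member, was at 162.4, 185.1, 215.5 and 206.2 CPM against 254.9, 277.2, 262.5 and 262.9 CPM, without overlap (-0.44 ± 0.14, adjusted p = 0.0326).

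Within series A (2 vAKI, 2 control) 5 members passed (7.56% of all genes) and within series B (2 and 2) 11 did (25%). Hoxa5 passed in both (0.63 in series A, adjusted p = 0.0454, and 1.08 in series B, adjusted p = 0.000867). Hoxb5 had a log2 fold change of 0.20 in series A (adjusted p = 0.677) and 1.04 in series B (adjusted p = 0.000231), and Hoxd1 of 0.33 (adjusted p = 0.891) and 2.79 (adjusted p = 0.00307). Hoxc6 was at -0.62 in series A (adjusted p = 0.0638) and -1.07 in series B (adjusted p = 0.000713). The count of 9 was 2 without control replicate 6 and 13 without vAKI replicate 1. Intercalated cell markers were lower in these vAKI libraries for 2 of 7 genes (627 to 978.5 CPM summed, against 1013 to 1344 in controls). Of 7 principal cell markers 1 rose and 2 fell, and proximal tubule (2 of 6), fat (2 of 6), thick ascending limb (1 of 3), endothelium (1 of 4) and macrophage markers (1 of 5) fell. The part of these cells was not tested.

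Tested directly, the vAKI response differed between the drivers for 2 members (4.2% of all genes), Hoxb4 (0.66) and Hoxd4 (0.62), both of which fell in the Hoxb7 pulldowns and had log2 fold changes of 0.12 ± 0.11 and 0.05 ± 0.12 in the Atp6b1v1 pulldowns. The count was 0 without Hoxb7 control replicate 3. The difference was not past the test for Hoxa5, Hoxc6 or Hoxd1.

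The injuries were also compared with each other, without controls. In the Hoxb7 pulldowns 16 members differed (33.3% of all genes), 13 higher (16.4%) and 3 lower (16.9%) in vAKI than in iAKI, and 9 were DEGs (14.7%). Hoxd1 was at 1.56, 1.34 and 2.96 CPM in vAKI and 0.198, 0.387, 0.242 and 0.306 CPM in iAKI, without overlap (log2 fold change 2.74 ± 0.53, adjusted p = 0.000348). Hoxd9 (1.40), Hoxb2 (1.20), Hoxa5 (1.12) and Hoxa11 (1.10) were higher in vAKI, and Hoxc5 (-1.39), Hoxc6 (-1.38) and Hoxc4 (-1.06) lower, with Hoxb1 higher at low counts. In the Atp6b1v1 pulldowns 14 members differed (29.3% of all genes), 9 higher (15%) and 5 lower (14.3%), and 4 were DEGs (11.6%), namely Hoxd1 (2.36), Hoxa5 (1.15), Hoxa6 (1.03) and Hoxb1. Hoxa5 was at 13.2, 19.3 and 19.7 CPM after iAKI, below the 4 vAKI libraries. The highest Hoxd1 level after iAKI in these pulldowns was 0.205 CPM, and 1 vAKI library was below it. Cell type markers differed in these comparisons too. In the Hoxb7 pulldowns, 3 of 7 principal cell, 3 of 5 macrophage and 3 of 7 stroma markers were lower in vAKI than in iAKI, and 1 of 7 principal cell and 1 of 5 macrophage markers were higher. In the Atp6b1v1 pulldowns, 5 of 7 intercalated cell, 5 of 6 fat, 3 of 7 principal cell, 2 of 3 thick ascending limb and 2 of 7 stroma markers were lower, and 3 of 6 proximal tubule, 2 of 4 skeletal muscle and 1 of 7 principal cell markers were higher, with 1 of 6 proximal tubule markers lower. Their part was not tested.

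**Figure D5:**
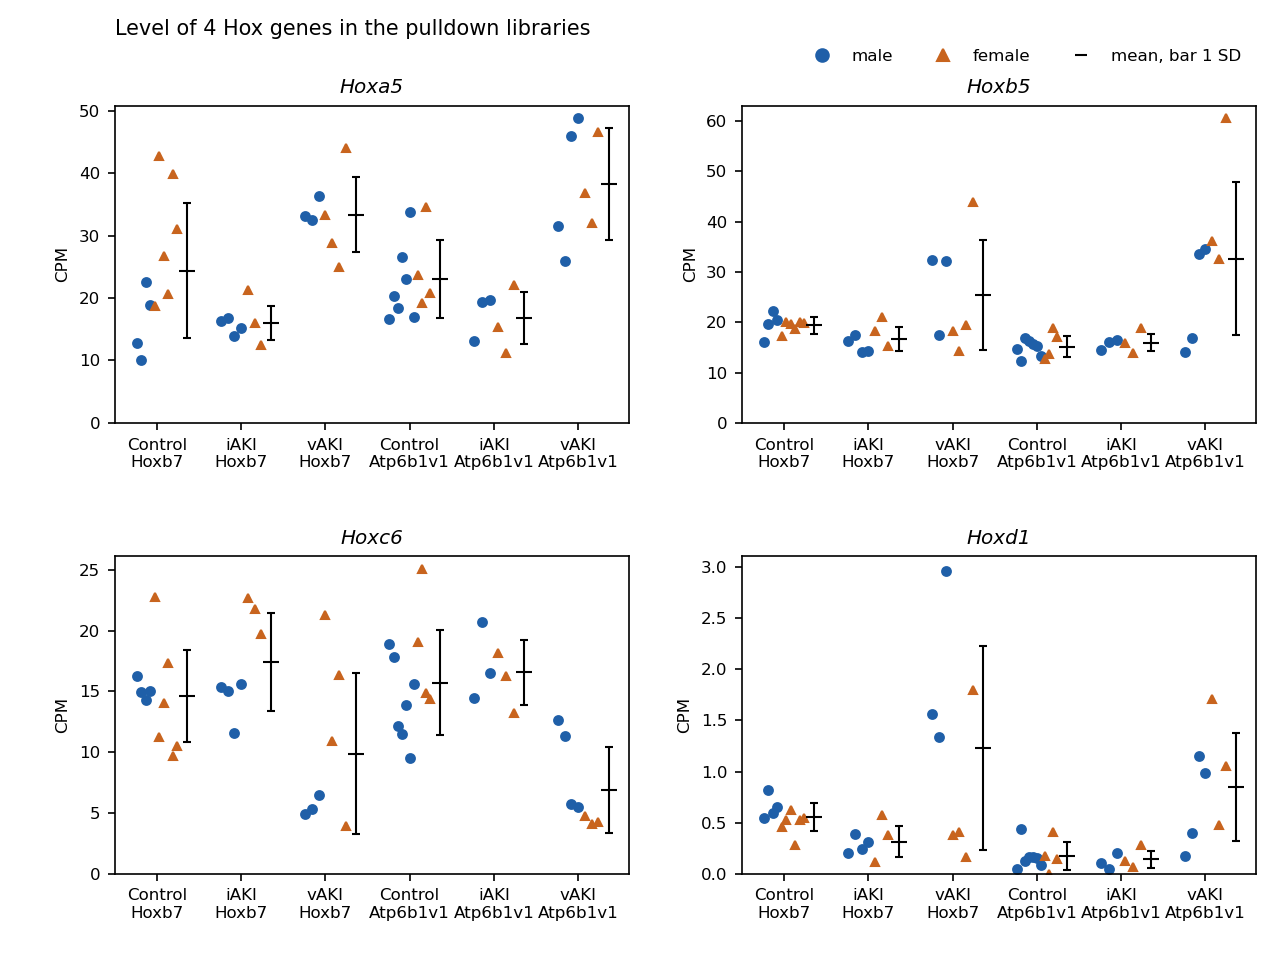
CPM of Hoxa5, Hoxb5, Hoxc6 and Hoxd1 in each pulldown library of 6 groups (control, iAKI and vAKI with each driver), male (circles) and female (triangles), with the mean and 1 SD. Hoxc6 is at 3.88 to 6.50 CPM in 9 vAKI libraries and at 10.9 to 21.3 CPM in the other 5, and Hoxa5 is at 25 to 48.9 CPM in the 14 vAKI libraries.

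Few Hox genes differed between the sexes. Over the 43 pulldowns of 5.5 months, 1 member passed between males and females (7.25% of all genes), Hoxb9 (log2 fold change -0.28 ± 0.09, lower in males, adjusted p = 0.0457), and it no longer passed in 26 of 43 fits that left out 1 library. In the Hoxb7 pulldowns, members passed the test of a difference in injury response between the sexes, but sex went in part with library series. The iAKI and vAKI libraries were all of series A. The female controls of 5.5 months were 1 of series A, 1 of B and 2 of C, and the male controls 2 of A and 2 of B. Both sexes thus had controls in series A and B and only females in series C, so sex and series were only partly separable in these differences. For iAKI 9 members passed (10.5% of all genes) and 7 were DEGs (6.98%), and for vAKI 7 passed (16%) and 3 were DEGs (10.8%). The vAKI counts, 18.4% and 7.89% of the members, were near the shares of all genes. In the Atp6b1v1 pulldowns 0 members and 0 of all genes passed in either injury (edgeR), with 676 and 1756 genes, and 0 and 1 members, below an unadjusted p of 0.05 for iAKI and vAKI. DESeq2 called 0 members in both.

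For vAKI in the Hoxb7 pulldowns, Hoxc6 and Hoxa5 had the largest difference in each direction among the 7 members that passed. Female Hoxc6 levels were 21.3, 10.9, 16.4 and 3.88 CPM after vAKI and 22.8, 11.2, 9.70 and 10.5 CPM in controls of 5.5 months (female minus male log2 fold change 1.37 ± 0.45, adjusted p = 0.0347). Only replicate 5 was below all of these controls, whereas all 3 males were below all of theirs. The only female control of series A, the series of the vAKI libraries, was at 22.8 CPM, above all 4 of them. The female controls of series B and C were at 9.70 to 11.2 CPM. Female Hoxa5 levels were 33.3, 28.9, 25 and 44 CPM after vAKI, close to those of the males (32.6 to 36.4 CPM), and the difference (-1.11 ± 0.37, adjusted p = 0.0393) lay in the controls, which were at 18.7 to 42.7 CPM in females and 10.1 to 22.6 CPM in males. The controls went with series as well as with sex. The only female control of series A was the lowest, at 18.7 CPM, below all 4 female vAKI libraries of that series, and the male controls of series A were below those of series B. Principal cell markers were at 1116 to 2450 CPM in the female controls of 5.5 months. In the female Atp6b1v1 pulldowns, vAKI changed 9 members (18% of all genes), including Hoxc6 (-2.07), Hoxb5 (1.47), Hoxa6 (1.20) and Hoxd1 (2.57). The 3 female Atp6b1v1 vAKI libraries were at 4.70, 4.07 and 4.28 CPM for Hoxc6, below all 4 controls (14.4 to 25 CPM).

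Genes that act with the Hox genes were compared after injury as well, in the same male pulldowns. In these, 35.5% of all genes passed for vAKI in Hoxb7 and 14.6% in Atp6b1v1. Of 11 TALE cofactors, 0 passed edgeR's test after iAKI in the Hoxb7 pulldowns (4 were below an unadjusted p of 0.05) and 1 in the Atp6b1v1 pulldowns. After vAKI, 7 rose and 1 fell in Hoxb7, with Meis2 at 22.3 ± 3.54 against 7.52 ± 0.686 CPM (SD, n = 3 and 4, log2 fold change 1.58 ± 0.26), followed by Pknox2 (1.39) and Tgif1 (1.19), and 4 rose and 1 fell in Atp6b1v1, including Pbx4 (0.99) and Meis2 (0.78). Of 36 Polycomb and trithorax genes, 12 rose and 11 fell after vAKI in Hoxb7, and 9 rose and 2 fell in Atp6b1v1. Those that rose included chromobox subunits of Polycomb repressive complex 1 and a demethylase that removes the Polycomb histone mark. Cbx2 was at 51.4 ± 6.51 against 11.5 ± 3.04 CPM in Hoxb7 (log2 fold change 2.17 ± 0.26), and Cbx8 rose by 2.12 in Hoxb7 and by 1.09 in Atp6b1v1 on the log2 scale. Kdm6b rose by 1.63 and 0.99 on the log2 scale.

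The other lists passed at shares near those of all genes in Hoxb7. Of 18 genes of retinoic acid and Cdx regulation, 4 rose and 3 fell after vAKI in the Hoxb7 pulldowns, with Aldh1a3, which makes retinoic acid, lower (-3.19 ± 0.43) and Cyp26a1, which degrades it, higher (1.72 ± 0.37), and 1, the receptor Rarb, rose in Atp6b1v1 (0.93). Of 20 ureteric and mesenchyme genes, 4 rose and 3 fell in Hoxb7, including Wnt11 (4.35), the ligand Gdnf (2.89, 0.893 against 0.116 CPM) and its receptor Ret (1.55), and 2 rose and 1 fell in Atp6b1v1, including Wnt11 (1.74). Of 18 noncoding RNAs of the clusters, 2 rose and 3 fell in Hoxb7 and 2 rose in Atp6b1v1. Hotairm1 of HoxA rose with both drivers (1.67 and 1.36), and in Hoxb7 Hoxa11os (1.04) rose and Hoxb5os (-1.15) fell. Of 26 genes that flank the clusters, 4 rose and 6 fell in Hoxb7 and 1 rose and 2 fell in Atp6b1v1. The 2 vAKI comparisons used separate pulldowns and separate controls.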

How the data were processed

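Newly synthesised and total RNA from mouse kidneys was measured by RNA-seq in 69 libraries. The authors prepared poly(A) libraries with a TruSeq RNA kit, sequenced them on an Illumina HiSeq, called bases with CASAVA 1.8.2, trimmed with Trimmomatic 0.36 (leading 10, trailing 10, minimum length 30), aligned to mm10 with STAR 2.5.3a and counted reads per gene with HTSeq 0.6.1p2 at its defaults. The annotation, and the strand setting by name, were not given in the sources used here. The deposited matrix held these raw read counts, with 0 columns left unused. HTSeq drops reads that map to several places or to overlapping genes, which lowers the counts of overlapping Hox genes.

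Counts were tested in R 4.3.3 with edgeR 4.0.16 (TMM, glmQLFit and glmQLFTest, genes with at least 2 counts over all libraries, Benjamini-Hochberg over 21175 genes). A member passed at an adjusted p below 0.05, and was a DEG with an absolute log2 fold change of at least 1 as well. CPM are counts per 1000000 counts after TMM scaling, and summed Hox counts are per 1000000 counts without it. Control comparisons were fitted on the 42 control libraries with sex, injury comparisons on the 22 male pulldowns of 5.5 months, and comparisons of the sexes on the 43 pulldowns of 5.5 months. Named members were the DEGs of any comparison and the 3 of highest mean in each cluster, and of other lists at most 4 genes of largest change. The members and lists were chosen with earlier results of these data known. Some other members and library values were named after they were seen.

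Groups came from the labels. The labels do not tie libraries to mice, cages or litters, so p-values measure the spread between these samples. Replicate numbers did not pair the samples, since the deviations of same-numbered samples correlated at -0.286 to 0.687 (Hoxb7 control and total), -0.117 to 0.697 (Atp6b1v1 control and total) and -0.539 to 0.342 (injury groups). Control pulldowns and total RNA libraries may come from the same mice. Put together in the order of library numbers within genotype, sex, age and series, the 21 pairs correlated at 0.434 to 0.746, in each case above every other total RNA library of that genotype and sex, and a block of these pairs was an alternative. No 2 libraries of a group agreed within sampling noise (388 pairs), and 0 of 69 libraries went against their labelled sex. On simulated data with 200 changed genes of 21175, the tests recovered 94.9% of 2-fold and 99% of 4-fold changes for the Hoxb7 control against total RNA, 72.2% and 93.2% for vAKI in Hoxb7, and 84.5% and 96.1% for vAKI in Atp6b1v1. False calls made up 5.37%, 2.35% and 6.22% of the calls in these. The changed genes were drawn from genes above a minimum mean count, and no library series was simulated. The rates therefore do not cover members of few counts such as Hoxb1 and Hoxa13. Alternatives were DESeq2 1.42.0, other scalings, filters, thresholds and sample sets, a library series term, a replicate block and leaving out each library. The fits within 1 library series and with library-order pairs were added after seeing the data. Some genes are counted in the totals but not reported here by name.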

Additional observations from a re-analysis of the deposited data

Results flagged for a closer look

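Of 113 sets of 4 to 10 replicate values with counts high enough to be examined, 4 held a library far from the others by Dixon's 95% limit, where chance gives about 1 in 20. Hoxa11 was at 2.02 CPM in male iAKI Hoxb7 replicate 5 and at 0.742 to 0.917 CPM in the other 3, and this library also had the highest summed stroma markers of its group (322 CPM). Hoxc6 was at 11.6 CPM in male iAKI Hoxb7 replicate 6 and at 15.1 to 15.6 CPM in the other 3. Hoxb7 control replicate 3 had the highest Hoxb9 (129 CPM, others 94.0 to 111 CPM) and the highest Hoxd3 (63.9 CPM, others 28.3 to 45.7 CPM) of the 10 Hoxb7 control pulldowns, and without it the number of members that differed between drivers was 0 for iAKI and 0 for vAKI, and the number that differed between the sexes after vAKI was 1.

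Responses that differed between groups by the test of the difference itself are given as differences of log2 fold changes with edgeR's adjusted p. For iAKI, the response in Atp6b1v1 minus that in Hoxb7 was 0.97 for Hoxc10 (adjusted p = 0.0319), 0.84 for Hoxb6 (0.0462), 0.73 for Hoxd8 (0.0277), 0.66 for Hoxd4 (0.0223) and -1.14 for Hoxa2 (0.0346). For vAKI it was 0.66 for Hoxb4 (adjusted p = 0.0221) and 0.62 for Hoxd4 (0.0438).

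In the Hoxb7 pulldowns, the response to iAKI in females minus that in males was 1.32 for Hoxc10 (adjusted p = 0.0147), 1.23 for Hoxd3 (0.0108), 1.05 for Hoxd4 (0.00722), 0.94 for Hoxb8 (0.0396) and 0.70 for Hoxb7 (0.0323). It was -1.63 for Hoxd11 (adjusted p = 0.0391), -1.47 for Hoxa2 (0.0145), -1.29 for Hoxa3 (0.0135) and -1.28 for Hoxa6 (0.0187). For vAKI the difference was 1.37 for Hoxc6 (adjusted p = 0.0347), 1.08 for Hoxc10 (0.0309), 0.91 for Hoxb4 (0.00575), 0.89 for Hoxc4 (0.0378), 0.76 for Hoxd4 (0.0227), -0.98 for Hoxa6 (0.0424) and -1.11 for Hoxa5 (0.0393). The number that passed for iAKI (9) was 2 without female iAKI replicate 3 and 13 without female control replicate 1, and for vAKI (7) it was 1 without male control replicate 3 and 11 without female vAKI replicate 5. Sex and library series were only partly separable in these differences.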

How the results depend on the processing

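Of 1433 alternative values for 35 counts of members, 1210 stayed within 1.5 times the count reported. Of 6302 alternative values for 144 results, each of 1 member that passed in 1 comparison, 5726 kept their direction and their side of the threshold. Depth limits Hoxb1, Hoxa13 and the other 7 members under 1 CPM, whose calls rest on few counts. The male injury groups held 3 or 4 libraries each, and the Hoxb7 and Atp6b1v1 responses were compared over those. The cause of the changes below was not tested, beyond the fewer samples or genes that some settings hold. Leaving out 1 library moved the count of members passing as follows, with DEGs in parentheses: Hoxb7 control against total RNA 24 to 26 (5 to 8), Atp6b1v1 control against total RNA 20 to 24 (0), Atp6b1v1 against Hoxb7 control 14 to 17 (1 to 3), iAKI in Hoxb7 1 to 5 (0), vAKI in Hoxb7 16 to 20 (7 to 9), iAKI in Atp6b1v1 0 to 2 (0), vAKI in Atp6b1v1 2 to 13 (0 to 3), vAKI against iAKI in Hoxb7 11 to 18 (7 to 10) and in Atp6b1v1 8 to 16 (2 to 6), drivers after iAKI 0 to 6 (0 to 3) and after vAKI 0 to 3 (0), sexes 0 to 1 (0), and sexes in Hoxb7 after iAKI 2 to 13 (1 to 10) and after vAKI 1 to 11 (0 to 8). The Cre genotype and the sexes in Atp6b1v1 stayed at 0.

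In a fit with a block for replicate numbers, although these did not pair the samples, 23 members passed for Hoxb7 and 21 for Atp6b1v1 control against total RNA, 10 (3 DEGs) for Atp6b1v1 against Hoxb7 control, 4 for iAKI and 7 (4 DEGs) for vAKI in Hoxb7, 8 (6 DEGs) for vAKI in Atp6b1v1, and 14 and 15 for vAKI against iAKI. The differences between drivers (0 and 0) and between the sexes in Hoxb7 (0 and 0) held no call under the block. The block of pairs in library order, added after seeing the data, gave 25 members (5 DEGs) for Hoxb7 and 24 (0 DEGs) for Atp6b1v1 control against total RNA, and of the members that passed without it only Hoxa13 in Hoxb7 lost its call. No paired analysis was possible because no replicate numbers are shared for the Cre genotypes in total RNA.

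DESeq2 called 6 for iAKI in Hoxb7, 1 for iAKI in Atp6b1v1, 2 DEGs for vAKI in Atp6b1v1, and 9 and 4 for the drivers after iAKI and vAKI. DESeq2 on all 69 libraries with the study's model gave 4 DEGs for vAKI in Hoxb7, 10 for iAKI and 16 (4 DEGs) for vAKI in Atp6b1v1, 24 (8 DEGs) for vAKI against iAKI in Atp6b1v1, and 1 (0 DEGs) for the drivers after iAKI. DESeq2's size factors in edgeR gave 1 for the drivers after vAKI. With filterByExpr the drivers after iAKI had 2 DEGs, and with no filter 2 DEGs, with 1 member for the drivers after vAKI and 0 for the sexes. With no fold threshold the DEG counts became 25, 21 and 17 for the control comparisons, 3 and 18 for iAKI and vAKI in Hoxb7, 9 for vAKI in Atp6b1v1, 16 and 14 for vAKI against iAKI, 5 and 2 for the drivers, 1 for the sexes and 7 for the sexes after vAKI. A library series term gave 8 for iAKI in Hoxb7, 14 (2 DEGs) for vAKI in Atp6b1v1, 8 for the drivers after vAKI and 2 for the sexes. Series A alone gave 10 (2 DEGs) for iAKI in Hoxb7, 2 for iAKI and 5 (2 DEGs) for vAKI in Atp6b1v1, and 9 (4 DEGs) and 7 (1 DEG) for the drivers, and series B alone 6 DEGs for vAKI in Atp6b1v1.

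Fits of only the groups compared gave 6 for iAKI in Hoxb7, 2 (0 DEGs) for vAKI in Atp6b1v1, 8 (2 DEGs) for vAKI against iAKI in Atp6b1v1, and 8 and 0 for the drivers. Adding the males of 3 months gave 1 for iAKI in Atp6b1v1 and 9 (2 DEGs) for the drivers after iAKI. All 48 pulldowns gave 2 for the sexes and 3 (1 DEG) for the sexes after vAKI. Pulldowns of males and females together, with a sex term, gave 1 and 5 (3 DEGs) for iAKI and vAKI in Hoxb7, 1 and 16 (5 DEGs) in Atp6b1v1, 22 (7 DEGs) for vAKI against iAKI in Atp6b1v1, and 0 for both driver differences. Males only gave 5 DEGs for Atp6b1v1 against Hoxb7 control. Females only gave 3 DEGs for Hoxb7 control against total RNA, 4 (0 DEGs) for Atp6b1v1 against Hoxb7 control, 0 for iAKI and vAKI in Hoxb7, 6 DEGs for vAKI in Atp6b1v1, 2 (2 DEGs) for vAKI against iAKI in Hoxb7 and 9 DEGs in Atp6b1v1, and 0 for both driver differences.

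Members changed sign only with 1 sex. In males Hoxa5 had a log2 fold change of -0.036 for Hoxb7 control against total RNA. In females Hoxa9 was at 0.002 there, and after iAKI in Hoxb7 Hoxb8 was at 0.27 and Hoxd4 at 0.41. After vAKI in Hoxb7, females gave 0.36 for Hoxb4, 0.38 for Hoxc10, 0.042 for Hoxd3, 0.20 for Hoxd4, -0.015 for Hoxa5, -0.008 for Hoxa6 and -0.011 for Hoxa9, and for vAKI against iAKI -0.009 for Hoxb9. Female driver differences were -0.44 for Hoxc10, -0.51 for Hoxd4 and 0.37 for Hoxa2 after iAKI, and -0.15 for Hoxb4 after vAKI.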
